A study of Homo sapiens with 9 samples.

Results

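REG4, 4 mucins, the 3 trefoil factors, AGR2 and SPDEF were followed on 9 whole-genome expression arrays of DLD1, a line of human colorectal cancer cells. These 10 genes, out of 31033 gene names on the array, were picked as genes of mucus-secreting (goblet-type) epithelium, and every probe that carries one of their names was taken, 17 of 50238 probes. REG4 is among the genes the study names for Lamin B2 knockdown (Kd), so the question was whether the other secretory genes changed with it. RNA came from 3 untreated control cultures, 3 Lamin A/C Kd cultures and 3 Lamin B2 Kd cultures, described as independent biological replicates, with 1 array per culture. Both knockdowns used siRNA at 100 nM for 48 h, and since none of these arrays came from cells given a control siRNA, the effect of transfection and that of losing a lamin cannot be told apart. The cells are 1 line in bulk culture, so fewer cells that express a gene and less RNA per cell cannot be told apart either.

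Goblet cells make the mucus of the gut. Secreted mucins such as MUC2 and MUC5AC form the gel, whereas MUC1 and MUC13 span the cell membrane. Trefoil factors are small, disulfide-rich peptides released with mucins that help epithelium to heal. AGR2 is a disulfide isomerase of the endoplasmic reticulum needed to make MUC2, and SPDEF is an ETS-family transcription factor that drives the maturation of goblet cells. REG4 is a secreted lectin-like protein of the regenerating islet-derived family, found in intestinal secretory cells and raised in many colorectal tumors. Lamins are the filament proteins under the inner nuclear membrane.

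The values depend on short probe sequences, which are shown here for the genes on which the results turn, as strands in the sense of the transcript from 5′ to 3′. Of REG4 only the first 30 of 60 bases are given for each probe. Capitals in the brighter REG4 probe mark the 15 bases it shares with the end of the forward primer of pair A of the study's REG4 PCR. All 20 bases of that pair's reverse primer complement lie within the same probe, at bases 40 to 59. The study also lists a pair B for REG4, which it describes as not represented on the array and which was not compared with the probes here.
REG4, brighter probe: CTCTTCCTTTCTGCTagcctggctaaatct
REG4, dimmer probe: ccaggagtttcaaagaagcgctagtaaggt
TFF1, dimmer probe: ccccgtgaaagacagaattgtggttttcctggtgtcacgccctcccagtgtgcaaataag
TFF2: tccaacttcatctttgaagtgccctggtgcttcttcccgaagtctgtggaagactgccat
SPDEF: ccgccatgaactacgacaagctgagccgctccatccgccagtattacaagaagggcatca
The 17 probes had little sequence in common. Over the 127 pairs of probes from different genes, the longest run of identical bases was 10. Of the 9 pairs from the same gene, 1 overlapped by more than 20 bases, a pair of TFF3 probes that shared 22 bases and are therefore not independent readings.

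All levels below are log2 signals minus the median of their array, so 0 is the level of the middle probe. On each array 65.6 to 74.1% of spots lay well above background. The targets checked the labels. On the log2 scale LMNA fell by 3.83 upon Lamin A/C Kd (limma, SE 0.22, adjusted p = 0.000225, n = 3 per group), and LMNB2 changed by −2.32 upon Lamin B2 Kd (limma, SE 0.14, adjusted p = 0.000523). Replicate 3 of Lamin B2 Kd was run on a slide of its own and differed more from the other Lamin B2 Kd arrays (SD of the probe differences 0.56 and 0.58) than replicates of any group on the common slide did from each other (0.25 to 0.33). All 8 markers of colon epithelium were well above background on all 9 arrays, and their summed level was 7580 to 8330 times the array median in the controls, 8210 to 8340 in Lamin A/C Kd and 7120 to 9670 in Lamin B2 Kd. One of them, VIL1, the microvillus protein villin, fell by 1.06 upon Lamin B2 Kd (limma, SE 0.21, adjusted p = 0.034), with all 3 arrays below the controls, and was at −0.58 in Lamin A/C Kd (adjusted p = 0.127). Its adjusted p in Lamin B2 Kd was above 0.05 in 11 of 19 other settings. Of 5 fibroblast markers 0 were above background on all 9 arrays, with sums of 1.07 to 1.33, 1.66 to 2.03 and 1.03 to 1.89 times the median. Of 4 immune cell markers 3 were, with sums of 3.42 to 6.09, 2.99 to 4.22 and 3.12 to 4.16. The part of such cells in the results was not tested. PDGFRB, a fibroblast receptor among them, read −2.02, −1.56 and −1.04 in the controls and −0.29, 0.01 and 0.22 in Lamin A/C Kd. It was well above background on 2 control arrays and all 3 Lamin A/C Kd arrays, so it passed the filter only through the group where it was higher. Its difference of 1.52 is therefore a description, and it ranged from 0.65 to 1.77 over 18 other settings. The goblet genes ATOH1, the factor that commits cells to the secretory lineage, and CLCA1, a secreted mucus protein, were each above background on 0 arrays. The whole goblet marker set was therefore not detected. Its other members were: SPDEF, MUC2, TFF3 and FCGBP on all 9 arrays by their brightest probes, and ZG16 on 2 of 3 Lamin A/C Kd arrays and on all others.

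REG4 was about 3 times brighter in Lamin B2 Kd than in the controls and no brighter in Lamin A/C Kd. Its brighter probe read −1.59, −1.88 and −0.25 in control replicates 1, 2 and 3. It read −1.35, −1.69 and −1.85 in Lamin A/C Kd, where 2 of the 3 arrays were well above background, and 0.23, 0.41 and 0.45 in Lamin B2 Kd. All 3 Lamin B2 Kd arrays lay above all other arrays, while control replicate 3 stood apart from its group and closer to Lamin B2 Kd. The mean difference in Lamin B2 Kd was 1.60 on the log2 scale, or 3.04-fold. Because the study named REG4 for this rise on these arrays, this is given as a description. Without control replicate 3 the difference was 2.10, and with normexp background correction, which raises low signals, it was 0.73. In Lamin A/C Kd the difference from control was −0.39 (SE 0.36, limma adjusted p = 0.584), and it was 0.10 without control replicate 3.

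The dimmer REG4 probe gave little more than a detection pattern. It was above background on 0 control arrays, on 0 Lamin A/C Kd arrays and on 2 Lamin B2 Kd arrays, and so was not tested. Its signals were −1.98, −3.47 and −4.30 in the controls, −2.97, −3.96 and −4.18 in Lamin A/C Kd, and −1.5, −1.79 and −2.44 in Lamin B2 Kd. The Lamin B2 Kd arrays were the highest except that control replicate 1 lay above Lamin B2 Kd replicate 3. The control array with the high value differed between the probes, replicate 3 on the brighter and replicate 1 on the dimmer.

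**Figure D1:**
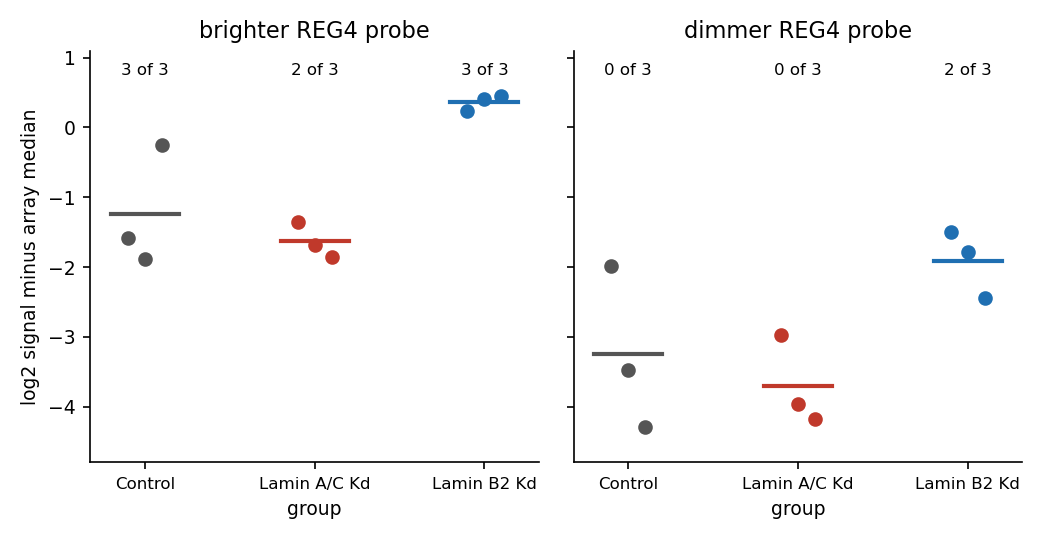
Log2 signal of the brighter (left) and the dimmer (right) REG4 probe relative to the array median, with 1 point per array, a line at each group mean and, above each group, the number of arrays well above background. On the brighter probe the Lamin B2 Kd arrays lie between 0.23 and 0.45 and the highest control is at −0.25, and on the dimmer probe only 2 of the 9 arrays, both Lamin B2 Kd, are well above background.

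Of the trefoil factors, TFF2 fell in Lamin A/C Kd. TFF1 and TFF3 did not pass the adjusted test there, at −0.42 and 0.36 on their brightest probes. The 3 genes are neighbors on chromosome 21, where in GRCh38.p14 TFF3 spans 42311667 to 42315409, TFF2 42346357 to 42350994 and TFF1 42362282 to 42366535, with gaps of 30.9 and 11.3 kb. All 3 are protein-coding genes.

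TFF2, a peptide with a pair of trefoil domains known best from gastric mucous neck cells, had 1 probe. It read 2.35, 2.26 and 2.31 in the controls and 1.47, 1.64 and 1.61 in Lamin A/C Kd. It read 2.14, 2.20 and 2.22 in Lamin B2 Kd. The Lamin A/C Kd arrays were all below the other 6, and the Lamin B2 Kd arrays lay between them and the controls. On the log2 scale TFF2 fell by 0.73 upon Lamin A/C Kd, to 0.60 of the control level (limma, SE 0.10, adjusted p = 0.00505). The difference in Lamin B2 Kd was −0.12 (SE 0.10, adjusted p = 0.485), and a direct test between the knockdowns gave −0.61 (SE 0.10, adjusted p = 0.00533). The fall in Lamin A/C Kd ranged from −0.76 to −0.62 over 19 other settings, and its adjusted p from 0.0016 to 0.0359.

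TFF1, the estrogen-inducible trefoil peptide also called pS2, gave like readings on both its probes. Its brighter probe read 6.23, 6.12 and 6.23 in the controls and 5.81, 5.76 and 5.77 in Lamin A/C Kd. It read 6.69, 6.53 and 6.15 in Lamin B2 Kd. Every Lamin A/C Kd array was below every control, whereas replicate 3 of Lamin B2 Kd lay within the range of the controls and replicates 1 and 2 were above it. The difference from control was −0.42 upon Lamin A/C Kd (SE 0.14, adjusted p = 0.111) and 0.26 upon Lamin B2 Kd (SE 0.14, adjusted p = 0.292). Within the common slide, that is without replicate 3 of Lamin B2 Kd, these were −0.42 (adjusted p = 0.0117) and 0.42 (adjusted p = 0.049). The Lamin A/C Kd and control arrays are the same in both fits, so the first adjusted p changed only through the estimate of the spread. The direct test between the knockdowns passed, with TFF1 lower in Lamin A/C Kd than in Lamin B2 Kd, a difference of −0.68 (SE 0.14, adjusted p = 0.0138). Its adjusted p was above 0.05 in 2 of 19 other settings and reached 0.0554.

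The dimmer TFF1 probe read 3.85, 4.01 and 3.93 in the controls, 3.69, 3.57 and 3.64 in Lamin A/C Kd, and 4.43, 4.24 and 4.10 in Lamin B2 Kd. On this probe the groups did not overlap at all, with Lamin A/C Kd lowest and Lamin B2 Kd highest. The differences from control were −0.30 (adjusted p = 0.168) and 0.32 (adjusted p = 0.154), and the knockdowns differed by −0.62 (limma, SE 0.12, adjusted p = 0.0095).

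TFF3, the trefoil peptide of intestinal goblet cells, had 3 probes, which did not read alike. Its brightest probe read 5.70, 5.47 and 5.62 in the controls, 6.01, 5.98 and 5.89 in Lamin A/C Kd and 6.02, 5.75 and 5.58 in Lamin B2 Kd. All Lamin A/C Kd arrays were above all controls, and the Lamin B2 Kd arrays overlapped both groups. The differences were 0.36 upon Lamin A/C Kd (SE 0.14, adjusted p = 0.141) and 0.19 upon Lamin B2 Kd (SE 0.14, adjusted p = 0.408). In 5 of 19 other settings the limma adjusted p upon Lamin A/C Kd was under 0.05, the lowest being 0.018. The probe that overlaps it gave 0.30 and 0.09, with adjusted p = 0.167 and 0.644. The other TFF3 probe, with no overlap over 20 bases, gave −0.08 and 0.16, with adjusted p = 0.833 and 0.515, and all its groups overlapped.

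**Figure D2:**
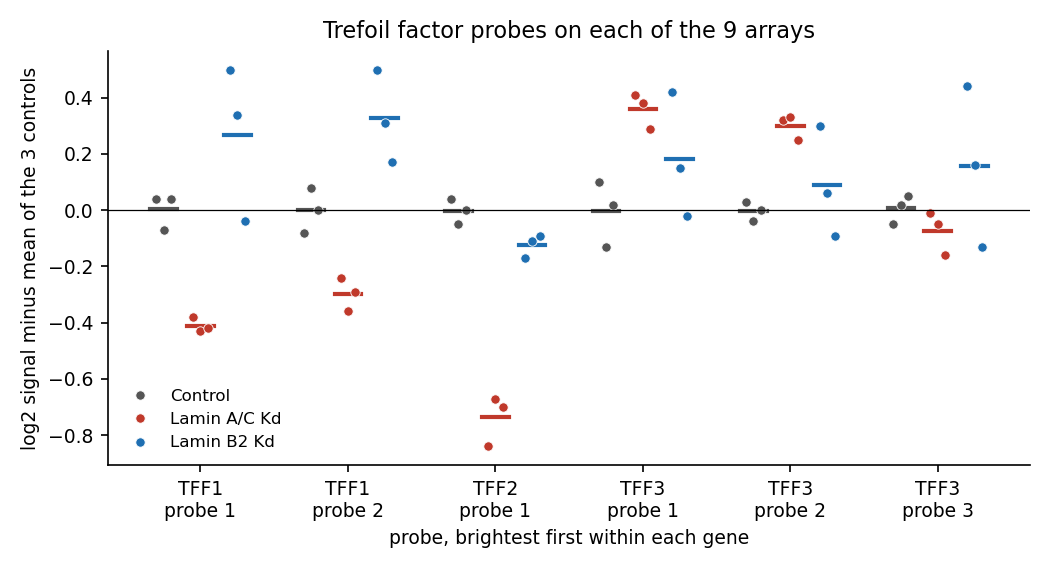
Log2 signal of each trefoil factor probe relative to the mean of its 3 controls, with 1 point per array and a line at each group mean. The Lamin A/C Kd arrays lie below the controls on both TFF1 probes and on TFF2, and above them on 2 of the 3 TFF3 probes.

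SPDEF, the goblet cell transcription factor, was lower in Lamin A/C Kd and differed between the knockdowns. It read 0.87, 1.06 and 1.09 in the controls and 0.43, 0.31 and 0.63 in Lamin A/C Kd. It read 1.06, 1.27 and 1.45 in Lamin B2 Kd. The Lamin A/C Kd arrays were below all others, and the Lamin B2 Kd arrays overlapped the controls. The difference in Lamin A/C Kd was −0.55 (SE 0.14, limma adjusted p = 0.0452), or 0.68 of the control level. This adjusted p lies close to the threshold and was above it in 14 of 19 other settings, where it reached 0.165. The difference in Lamin B2 Kd was 0.25 (SE 0.14, adjusted p = 0.306). Between the knockdowns SPDEF was lower in Lamin A/C Kd, at −0.80 (SE 0.14, adjusted p = 0.0068), and the adjusted p was at most 0.0335 in all 19 settings.

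AGR2, the isomerase that folds MUC2, was well above background on all 9 arrays. It read 7.24, 7.29 and 7.36 in the controls, 6.95, 6.86 and 7.01 in Lamin A/C Kd, and 7.41, 7.23 and 6.81 in Lamin B2 Kd. All Lamin A/C Kd arrays were below the controls, and in Lamin B2 Kd the slide-separated replicate 3 was the lowest array of the series. Neither difference passed the adjusted test, at −0.36 (SE 0.16, adjusted p = 0.201) and −0.15 (SE 0.16, adjusted p = 0.555). Within the common slide they were −0.36 (adjusted p = 0.0276) and 0.02 (adjusted p = 0.942). The first difference is unchanged, and only the estimate of the spread moved its adjusted p.

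**Figure D3:**
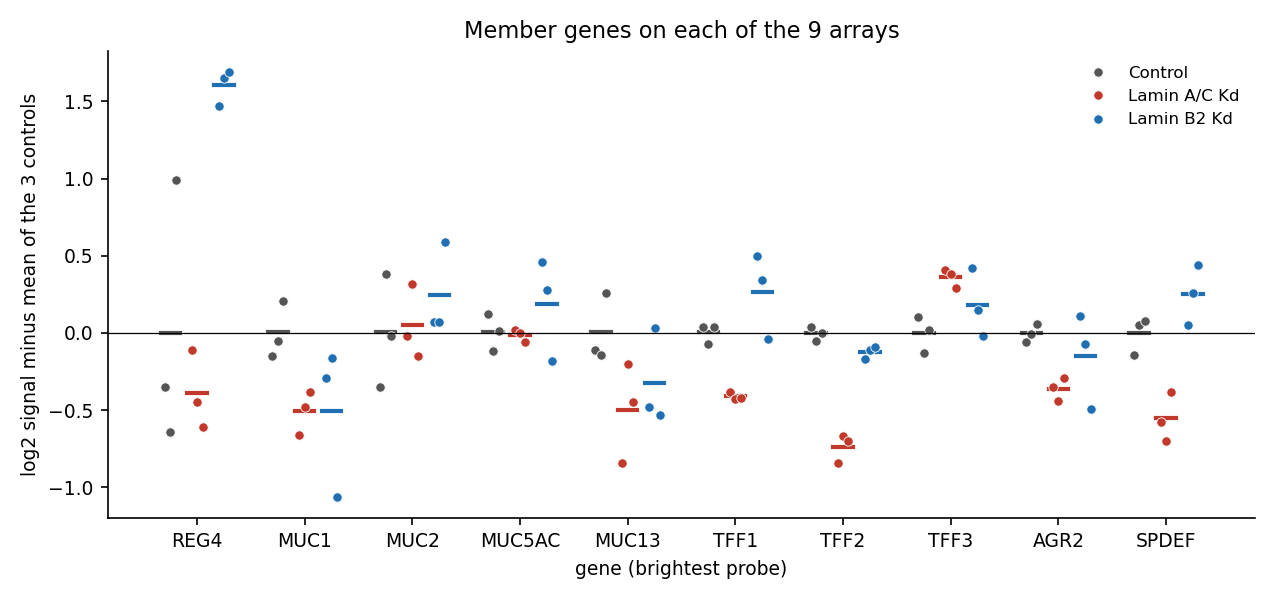
Log2 signal of the brightest probe of each of the 10 genes relative to the mean of its 3 controls, with 1 point per array and a line at each group mean. REG4 stands at 1.60 in Lamin B2 Kd, TFF2 has the lowest Lamin A/C Kd mean at −0.73, and TFF3 is the only gene with all Lamin A/C Kd arrays above the controls.

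No mucin passed the adjusted test in either knockdown. Among the gel-forming mucins, MUC2, the main mucin of the colon, had 3 probes. Its brightest probe read 1.98, 2.71 and 2.31 in the controls, 2.31, 2.65 and 2.18 in Lamin A/C Kd and 2.40, 2.40 and 2.92 in Lamin B2 Kd, and all groups overlapped. The differences were 0.05 (SE 0.22, adjusted p = 0.936) and 0.24 (SE 0.22, adjusted p = 0.507). A dimmer MUC2 probe read −0.37, −0.31 and −0.51 in the controls, −0.37, 0.94 and −0.50 in Lamin A/C Kd and 0.82, 0.12 and 0.80 in Lamin B2 Kd. On that probe all Lamin B2 Kd arrays were above the controls and 1 Lamin A/C Kd array, replicate 2, stood apart from replicates 1 and 3. Its difference in Lamin B2 Kd was 0.97 (SE 0.36, adjusted p = 0.148). The remaining MUC2 probe was above background on 0 arrays.

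MUC5AC, a gel-forming mucin of the stomach and airways that many colorectal tumors express, had 2 probes. The brighter read 1.71, 1.47 and 1.60 in the controls, 1.61, 1.59 and 1.53 in Lamin A/C Kd and 2.05, 1.87 and 1.41 in Lamin B2 Kd. Its differences were −0.02 (SE 0.17, adjusted p = 0.975) and 0.18 (SE 0.17, adjusted p = 0.499), and all groups overlapped. The dimmer probe was set apart by control replicate 2, which read −0.43 where the other controls read 1.17 and 1.13. On it the differences were 0.38 (SE 0.36, adjusted p = 0.598) and 0.57 (SE 0.37, adjusted p = 0.361).

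MUC1 and MUC13, the membrane mucins picked for the gene set, were lower in both knockdowns on average. This does not extend to mucins outside the set, which are given with the lists below. MUC1, which coats the apical surface of glandular cells, read 0.70, 0.80 and 1.06 in the controls, 0.19, 0.37 and 0.47 in Lamin A/C Kd and 0.56, 0.69 and −0.21 in Lamin B2 Kd. Every knockdown array was below every control, and replicate 3 of Lamin B2 Kd was the lowest. The difference was −0.51 in each knockdown (SE 0.23, adjusted p = 0.207 upon Lamin A/C Kd and 0.217 upon Lamin B2 Kd). Without replicate 3 of Lamin B2 Kd the first was still −0.51, with an adjusted p of 0.0222 through the changed estimate of the spread, and the second was −0.23. MUC13, a membrane mucin of the gut, read 1.18, 1.15 and 1.55 in the controls, 0.45, 1.09 and 0.84 in Lamin A/C Kd and 0.81, 1.32 and 0.76 in Lamin B2 Kd. Only its Lamin A/C Kd arrays were all below the controls. The differences were −0.50 (SE 0.21, adjusted p = 0.185) and −0.33 (SE 0.21, adjusted p = 0.358).

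Counted over the whole set, all 10 genes passed the filter on dim probes in each comparison through their brightest probe. At the study's threshold of at least 2-fold with an unadjusted p under 0.05, 0 of 10 passed in Lamin A/C Kd, where 2.2% of all genes tested did, and 7 had an unadjusted p under 0.05, against 23.2% of all genes. In Lamin B2 Kd 1 of 10 passed, against 2.03% of all genes. That gene was REG4, and 0 of the other 9 did. On their brightest probes 0 of those 9 had an unadjusted p under 0.05, against 24.4% of all genes. The dimmer probes of MUC2 and TFF1 described above did, with limma adjusted p = 0.148 and 0.154 and all Lamin B2 Kd arrays above the controls. A limma adjusted p under 0.05 as the sole criterion, also used below, was a rule chosen after the data were seen. By it 2 of 10 passed in Lamin A/C Kd, TFF2 and SPDEF, both lower. Of all genes 8.94% passed in either direction and 5.78% lower. By that criterion 0 of the 9 genes other than REG4 passed in Lamin B2 Kd, against 4.38% of all genes.

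The separation of the arrays was also counted. In Lamin A/C Kd 6 of the 10 genes had all arrays below the controls and 1, TFF3, had all above them, against 25.1% and 15.6% of all genes. In Lamin B2 Kd 2 of the other 9, MUC1 and TFF2, had all arrays below the controls, a share no higher than the 27.2% of all genes. Upon Lamin A/C Kd the median log2 difference over the 10 genes was −0.40, where that of all genes was −0.04. Upon Lamin B2 Kd it was 0.18, where that of all genes was −0.14. Without REG4 these medians were −0.42 and 0.18.

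The knockdowns were also compared directly, since a difference in one and not in the other does not show that they differ. At 2-fold, 1 of 10 genes passed, REG4, against 4.21% of all genes. With the adjusted p alone, 3 of the 9 genes other than REG4 passed, TFF1, TFF2 and SPDEF, all lower in Lamin A/C Kd than in Lamin B2 Kd, against 15.7% of all genes in either direction and 4.53% in that direction. REG4 was also lower, at −2.00 on the log2 scale, a difference that rests on the same Lamin B2 Kd arrays for which it was named. The sizes of the other 3 were −0.68, −0.61 and −0.80, all under 2-fold. This comparison shares its arrays with those against the controls and is not a separate experiment.

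**Figure D4:**
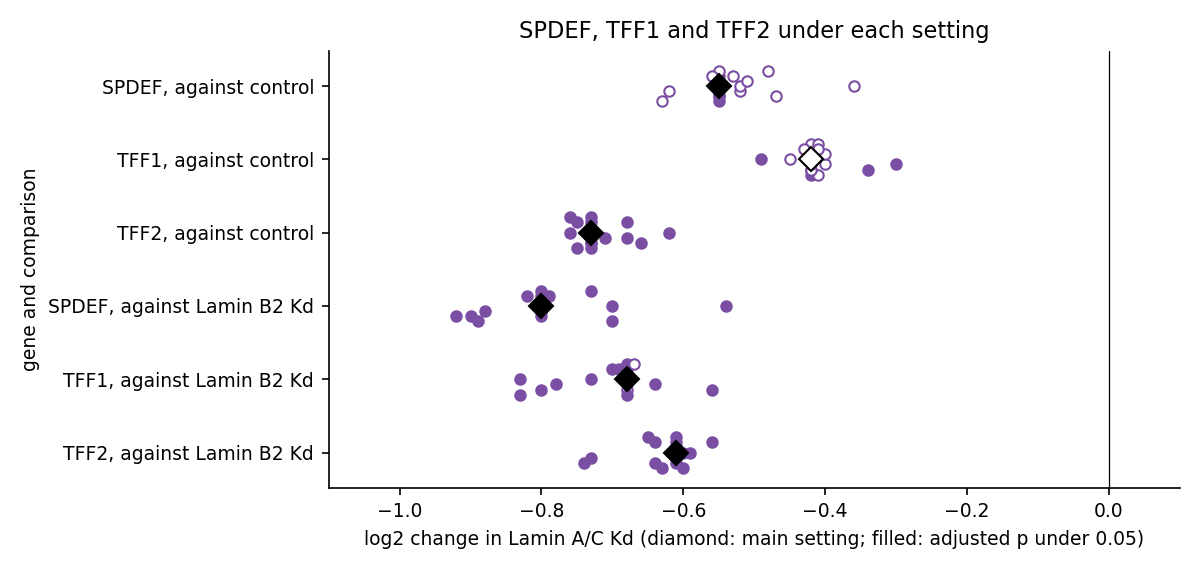
Log2 change of SPDEF, TFF1 and TFF2 in Lamin A/C Kd against control (upper 3 rows) and against Lamin B2 Kd (lower 3 rows), with a diamond for the value in the text and a circle for each of 19 other settings, filled where the limma adjusted p was under 0.05. Every value lies below 0. TFF2 is filled throughout, and SPDEF against control is open in 14 of 19 circles.

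Genes around mucus secretion were read from 9 lists of 82 genes in all, of which 60 could be tested in each knockdown. At the study's threshold 3 of 60 were called in Lamin A/C Kd, 1 higher and 2 lower, and 1 of 60 upon Lamin B2 Kd, beside the 2.2% and 2.03% of all genes given above. With the adjusted p alone these were 9 (2 higher, 7 lower) and 1, beside 8.94% and 4.38% of all genes. The 7 include DLL4, which passed the filter only through the controls, where it was higher. The counts by list below are read against these shares. The list genes had a median log2 difference of 0.05 upon Lamin A/C Kd and −0.12 upon Lamin B2 Kd, near the −0.04 and −0.14 of all genes.

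The Notch pathway holds intestinal progenitors back from the secretory fate. Of its 10 tested genes 3 were lower by adjusted p upon Lamin A/C Kd, where 5.78% of all genes were. Upon Lamin B2 Kd 0 were. The genes did not all move one way upon Lamin A/C Kd, although 0 were higher by adjusted p. DLL1, ADAM17 and JAG1 were at 0.42, 0.35 and 0.15 (limma adjusted p = 0.324, 0.117 and 0.491). ADAM17 differed between the knockdowns by 0.46 (adjusted p = 0.0328). NOTCH2, a receptor, read 6.56, 6.51 and 6.58 in the controls and 5.36, 5.23 and 5.50 in Lamin A/C Kd, well apart. It fell by 1.19 (SE 0.14, limma adjusted p = 0.00236), with 0.02 in Lamin B2 Kd (adjusted p = 0.929). RBPJ, the DNA-binding partner of cleaved Notch, changed by −0.93 (SE 0.15, adjusted p = 0.00739), and Lamin B2 Kd gave −0.26 (adjusted p = 0.306). DLL4, a ligand close to background, was lower, at −0.77 (SE 0.18, adjusted p = 0.0293), and its adjusted p was above 0.05 in 10 of 18 other settings. Between the knockdowns the differences were −1.21 for NOTCH2 and −0.67 for RBPJ, with limma adjusted p = 0.00105 and 0.0154.

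Among enzymes that build the O-glycans of mucins, 3 of 17 tested genes passed the adjusted test upon Lamin A/C Kd and 1 upon Lamin B2 Kd, against 8.94% and 4.38% of all genes. The count of 1 is near the general share. C1GALT1, which makes the core 1 structure, read 1.97, 1.92 and 2.05 in the controls, 0.53, 0.68 and 0.73 in Lamin A/C Kd and 2.30, 2.12 and 2.25 in Lamin B2 Kd. Lamin A/C Kd lay far below and Lamin B2 Kd just above the controls. C1GALT1 fell by 1.33 in Lamin A/C Kd (SE 0.11, limma adjusted p = 0.000543), to 0.40 of the control level, with 0.24 in Lamin B2 Kd (adjusted p = 0.227). GALNT12, a transferase that starts O-glycans, was lower in both, at −0.69 (SE 0.14, adjusted p = 0.0193) and −0.87 (SE 0.14, adjusted p = 0.0182), although each adjusted p was above 0.05 in 8 and 7 of 19 other settings. FUT2, the secretor fucosyltransferase, was higher in Lamin A/C Kd by 0.63 (SE 0.11, adjusted p = 0.0119), a call lost in 4 of 19 other settings, and read −0.34 in Lamin B2 Kd (adjusted p = 0.126). The knockdowns differed in FUT2 by 0.97 (adjusted p = 0.00115).

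Of 9 tested genes listed as regulators of the secretory lineage, not all of which promote it, 2 passed the adjusted test upon Lamin A/C Kd. Upon Lamin B2 Kd 0 did, and the shares of all genes were 8.94% and 4.38%. FOXA2, a forkhead factor of goblet and endocrine cells, was lower, at −0.62 (SE 0.14, adjusted p = 0.0252), and GFI1, a zinc-finger repressor downstream of ATOH1, at −0.52 (SE 0.13, adjusted p = 0.0401). Their adjusted p was above 0.05 in 8 and 11 of 19 other settings.

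The products of goblet cells showed no call. Of 8 tested, 0 passed the adjusted test in either knockdown, with changes from −0.94 to 0.55 upon Lamin A/C Kd and from −0.67 to 0.23 upon Lamin B2 Kd. ZG16, a mucus lectin, had the lowest value in both, −0.94 and −0.67 (limma adjusted p = 0.209 for the second). It was well above background on 2 of 3 Lamin A/C Kd arrays. Its −0.94 there is a description, since it passed that filter only through the controls, where it was higher. FCGBP, a mucus-bound glycoprotein, was at 0.12 (adjusted p = 0.883) and −0.58 (adjusted p = 0.285). Of the other mucins, 5 of 12 could be tested and 0 passed, MUC5B, a gel-forming mucin next to MUC5AC on chromosome 11, being at 0.43 (adjusted p = 0.125) and 0.27 (adjusted p = 0.307). MUC16 was well above background on all 3 control arrays but on 1 array of each knockdown. It passed the filter only through the controls, where it was higher, so its differences of −0.08 and −0.66 are descriptions. MUC20 went the other way from MUC1 and MUC13 upon Lamin A/C Kd, at 0.40 (adjusted p = 0.246) with all arrays above the controls. It was at −0.31 upon Lamin B2 Kd (adjusted p = 0.344), and the knockdowns differed by 0.71 (limma, SE 0.19, adjusted p = 0.0368).

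No change was called in the relatives of REG4 that could be tested. Of 4 other REG genes 3 could be tested and 1 was above background on 0 arrays. By adjusted p 0 of the 3 passed, which is near the shares of 8.94% and 4.38% of all genes. REG1A and REG3A had control means of −1.20 and −0.74, close to background, so a modest change could have been missed. REG3A, an antibacterial lectin, was at 0.07 and 0.24 (adjusted p = 0.927 and 0.609), and REG1A at −0.23 and 0.05 (adjusted p = 0.748 and 0.926).

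Lists of neighboring cell types gave single genes. Only 4 of 9 enteroendocrine, 2 of 4 Paneth and 2 of 6 gastric surface genes could be tested in each knockdown. At the study's threshold 1 Paneth gene was called upon Lamin A/C Kd and 1 enteroendocrine gene upon Lamin B2 Kd. These counts stand beside 2.2% and 2.03% of all genes, and lists this small carry little weight. Upon Lamin B2 Kd the 4 enteroendocrine genes ranged from 0.11 to 1.13. PYY, a hormone of colonic endocrine cells, read −0.45, −0.49 and −0.55 in the controls and 0.77, −0.20 and 1.34 in Lamin B2 Kd. All Lamin B2 Kd arrays were above the controls, but they spread widely, and the difference of 1.13 (SE 0.32) was past 2-fold with an adjusted p = 0.0853. It was 0.78 without replicate 3 of Lamin B2 Kd, which ends the call. INSM1, an endocrine transcription factor, was at 0.92 (SE 0.24, adjusted p = 0.0664). PLA2G2A, a Paneth cell phospholipase, read −1.06, −0.87 and −1.05 in the controls and 0.11, 0.26 and 0.11 in Lamin A/C Kd, with no overlap. It rose by 1.15 (SE 0.17, adjusted p = 0.00573), and DEFA6, a Paneth cell defensin, was at −0.17 (adjusted p = 0.884). Of the gastric surface genes CTSE was at −0.72 in Lamin B2 Kd (adjusted p = 0.124) and GKN1 at 0.87 in Lamin A/C Kd (adjusted p = 0.429), the latter through replicate 1, which read 1.30 where the others read −1.60 and −0.96.

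**Figure D5:**
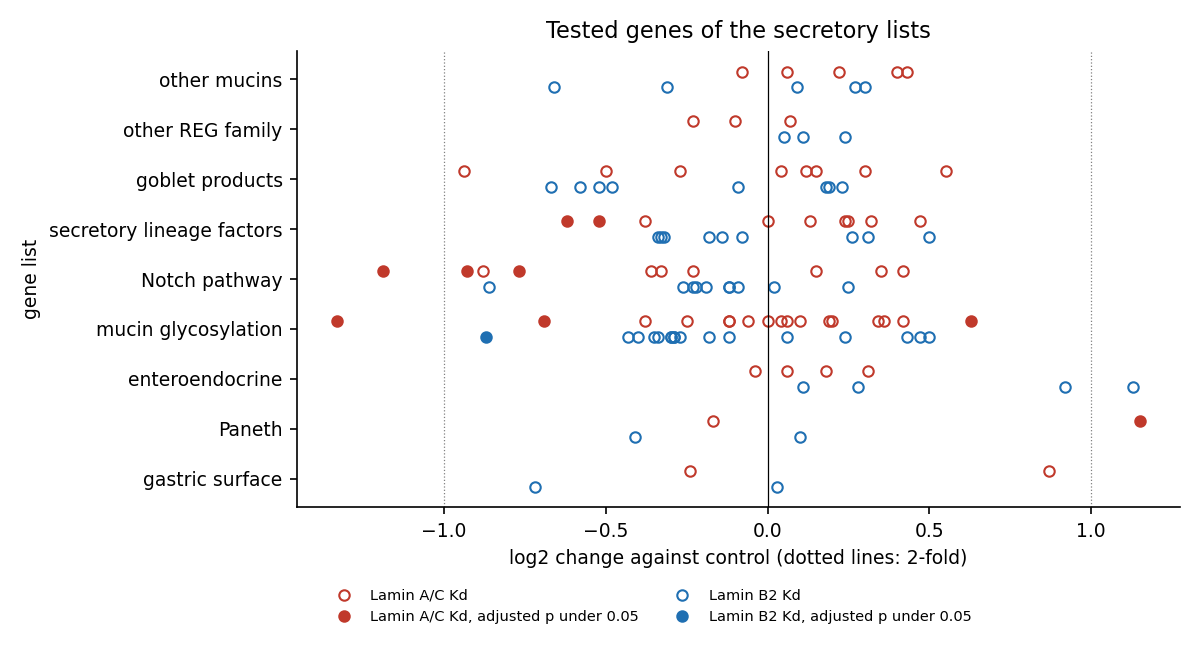
Log2 change against control of each tested gene of the 9 secretory lists, with Lamin A/C Kd in red above Lamin B2 Kd in blue, filled where the limma adjusted p was under 0.05. The filled points in Lamin A/C Kd lie in the lineage factor, Notch, glycosylation and Paneth lists, and the single one in Lamin B2 Kd, GALNT12, is at −0.87.

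The 5 genes that resembled REG4 most over the 9 arrays are given as a description. So few of 22057 genes would rarely include any of the other 9, so their absence there carries no weight. The likeness also rests in part on the Lamin B2 Kd rise for which REG4 was named. Likeness was taken as the root mean square of the differences from REG4's brighter probe, after each probe was set to 0 at its control mean, over 22057 genes. REG4 itself had a root mean square of 1.05 on this scale. The nearest 5 were LOC643406 at 0.47, IL33, an alarmin cytokine of epithelial and endothelial nuclei, at 0.49, SNORA2B, a small nucleolar RNA, at 0.50, HBA2, an alpha globin, at 0.51, and DHRS3, a retinal reductase, at 0.55. IL33 read 3.17, 2.90 and 3.13 in the controls, 2.81, 2.56 and 2.45 in Lamin A/C Kd and 4.21, 4.23 and 4.02 in Lamin B2 Kd. Its groups were fully separate, in the order Lamin A/C Kd, control, Lamin B2 Kd. Among the other 9 genes SPDEF and TFF1 were closest to REG4, both at 0.89, ranking 1267 and 1277, and MUC1 was farthest, at 1.31 and rank 18229.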

How the data were processed

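RNA of each culture was labeled with Cy3 and hybridized to a single-color Agilent array. For each array the authors deposited the output of Feature Extraction (version 10.5 in the submitters' processing notes, 10.7.3.1 in the file headers), in which the processed signal is a background-subtracted intensity. They also deposited log2 signals centered on the median of each row, which served as an alternative matched by gene ID. The Lamin B2 Kd columns there carry other set numbers than the titles, so they were used by group only.

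From each log2 intensity the array's 50th percentile was subtracted, and spots of one probe that were not outliers were averaged. Testing required that at least 0.5 of a probe's spots be marked well above background on each of the 3 arrays in 1 or more of the compared groups. A linear model over the 9 arrays was fitted with limma 3.58.1 in R 4.3.3. Benjamini-Hochberg adjustment ran over all probes tested, 33131 for Lamin A/C Kd, 33535 for Lamin B2 Kd and 33134 between them. The brightest tested probe stood for a gene. A call is a 2-fold change with p under 0.05, the threshold in the study's methods. Precision is limited by having 3 arrays a group.

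Genes and lists were chosen with earlier results of these data known. The genes named are the 10 genes, LMNA, LMNB2, the list genes called in either knockdown, the 2 tested genes of each list with the largest changes, and the 5 nearest to REG4. DLL4, DLL1, ADAM17, JAG1, GFI1, FUT2, VIL1, PDGFRB, ATOH1, CLCA1 and MUC20, where outside that rule, were added after their values were seen. Positions come from a RefSeq table of GRCh38.p14, and probe sequences from the scanner files. The steps were tested on simulated data. Set numbers did not pair the cultures (correlations of deviations from −0.09 to 0.15). Alternatives were other normalizations (75th percentile, quantile, normexp with an offset of 50), filters, blocks and call rules, the authors' processed values, and each array left out.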

Additional observations from a re-analysis of the deposited data

How the results depend on the processing

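The brighter REG4 probe lies close to background in controls and Lamin A/C Kd, so it could not be tested where detection on all 9 arrays was required. Of 567 recomputed values of the 10 genes, 491 kept their direction and their side of the adjusted threshold, 31 lost it, 26 gained it and 19 changed sign, all 19 from main values without an adjusted p under 0.05. The causes were not tested. The variance moderation was first run over all probes and then, after values had been seen, over tested probes only, as the design was worded. With all probes the adjusted p of SPDEF in Lamin A/C Kd was 0.0743, that of REG4 in Lamin B2 Kd 0.0821 and that of TFF2 in Lamin A/C Kd 0.0127. With a replicate block, although set numbers did not pair the cultures, the counts of the 10 genes called stayed at 0, 1 and 1, TFF2 was at −0.73 and SPDEF at −0.55 with an adjusted p of 0.0623.

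The number of the 10 genes called upon Lamin A/C Kd was 0 and became 1 at 1.5-fold, 2 with the adjusted p alone and 1 with that rule and moderation over all probes. Both of the latter rules were chosen after seeing the data. Upon Lamin B2 Kd the count of 1 became 0 with normexp, with detection on all 9 arrays and by adjusted p alone with moderation over all probes. Between the knockdowns the count of 1 became 0 with normexp and with detection on all 9 arrays, and 4 at 1.5-fold, by adjusted p alone and by that rule with moderation over all probes. List genes called upon Lamin A/C Kd, 3, became 10 at 1.5-fold, 9 by adjusted p alone and 7 by that rule with moderation over all probes, and ranged from 3 to 5 as single arrays were left out, the 5 without Lamin A/C Kd replicate 2. Upon Lamin B2 Kd the count of 1 became 2 with the 75th percentile, 0 with normexp, with the slide as a block and with the adjusted p added to 2-fold, 7 without a filter, and 6 in the authors' processed values and at 1.5-fold. It ranged from 0 without Lamin B2 Kd replicate 3 to 3 without its replicate 1 or 2.

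The sign changes were as follows. Upon Lamin A/C Kd MUC2 read −0.02 with normexp, and MUC5AC 0.06 with the 75th percentile, 0.02 with quantile normalization and 0.08 in the authors' values. Upon Lamin B2 Kd TFF2 read 0.08 and 0.05, and AGR2 0.05 and 0.08, with the 75th percentile and quantile normalization, which moved the median of all probes from −0.14 to 0.06 and −0.01. AGR2 read 0.02 with the slide as a block. With single arrays left out, REG4 ranged from −0.71 to 0.10, MUC2 from −0.13 to 0.24 and MUC5AC from −0.08 to 0.04 upon Lamin A/C Kd, and AGR2 from −0.28 to 0.02 upon Lamin B2 Kd. Between the knockdowns MUC1 then ranged from −0.29 to 0.17 and MUC13 from −0.32 to 0.00.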
